A study of Mus musculus with 53 samples.

Results

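The response of SS64 cells to *miR-214* was read from 8 of the 53 mouse GeneChip arrays of the series, chosen by their labels alone: 4 of SS64 cells that had received *miR-214* and 4 of SS64 cells labelled NC, which the labels do not expand and which is taken here as the control of the transfection. SS64 is a line of mouse synovial sarcoma cells grown in DMEM with fetal bovine serum, so the 8 arrays stand for 1 line. A second line, SS40, has 4 arrays of each kind and is used only to show where SS64 differs, while the other arrays hold eMCs with an empty vector or *SS18-SSX1*, tumors and a normal tissue mix. The labels number the arrays of each group from 1 to 4 and give neither the dose of *miR-214* nor the time after transfection, and nothing says whether the replicates were separate transfections. The p-values therefore measure only the spread between these arrays, which may be technical.

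A microRNA is a short RNA that guides Argonaute proteins to messenger RNAs. Pairing is led by the seed near its 5′ end, usually with sites in the 3′ untranslated region, and the paired messenger RNA is destabilized or less translated, so that the transcripts of direct targets tend to fall while those of indirect ones may move either way. *miR-214* is made from *Dnm3os*, a long noncoding RNA of the *Dnm3* locus that also carries *miR-199a*, and is best known from mesenchyme, skeletal tissue and tumors. Synovial sarcoma is a soft tissue tumor driven by the SS18-SSX fusion protein, which alters SWI/SNF chromatin remodeling.

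The mature sequences of mouse *miR-214* are shown 5′ to 3′ because the seed, bases 2 to 8 in capitals, defines what this microRNA can pair with. They were taken from RefSeq on GRCm38.p6, and the labels do not say which arm or construct was transfected.
mmu-miR-214-3p: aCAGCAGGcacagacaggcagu
mmu-miR-214-5p: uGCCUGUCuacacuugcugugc
mmu-miR-761: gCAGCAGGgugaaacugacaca
The 3p arm lies at chr1:162223438-162223459 and the 5p arm at chr1:162223397-162223418, both on the plus strand within *Dnm3os* (chr1:162217623-162225550). Of the 1679 mature mouse microRNAs in the table, only mmu-miR-761 (chr4:109017669-109017690, plus strand) shares the 3p seed, and none shares the 5p seed. A target that pairs with the whole 3p seed holds the DNA letters CCTGCTG. No sequences of 3′ untranslated regions were used here, so seed matches were not counted. The hairpin at chr1:162223368-162223477 is shown with both mature arms in capitals, the 5p arm first.
Mir214 hairpin: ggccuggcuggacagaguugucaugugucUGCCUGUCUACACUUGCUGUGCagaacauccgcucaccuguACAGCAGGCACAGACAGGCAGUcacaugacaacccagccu

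The array reads long transcripts by short probes and has no measure of the mature microRNA, so that the introduction of *miR-214* itself was not measured. Each probe set has 1 deposited intensity per array, in arbitrary linear units, with array medians of 22.7 to 24.0 in these 8 arrays. Values under a floor of 11.7 were raised to it, and 37362 probe sets, which stand for 15489 named genes, lay above it on at least 4 of the 8 arrays and were tested on the log2 scale with limma. A probe set is said to have risen or fallen, or is called, where its adjusted p was under 0.05. None of 5 measures of array quality passed a test between the groups (exact permutation tests, two-sided, p from 0.143 to 0.971, where 4 arrays against 4 allow no p under 0.0286). *Gapdh* read at its 3′ end over *Gapdh* read at its 5′ end, on the log2 scale, averaged -0.175 ± 0.0486 in SS64 *miR-214* cells and -0.175 ± 0.0684 in SS64 NC cells (SD, n = 4 each). The same ratio for *Tfrc*, which had the smallest p, averaged 0.660 ± 0.282 and 0.392 ± 0.119. With so few arrays, these tests cannot show that the groups were equal. Of 6 synovial sarcoma markers, 3 averaged over 100 in NC cells, with mean intensities in *miR-214* and NC cells of 1722 and 1707 for *Sox2*, 369 and 362 for *Tle1* and 195 and 177 for *Bcl2*. The other 3 were lower, at 50.03 and 38.15 for *Cdh11*, 40.4 and 44.0 for *Igf2* and 43.6 and 48.1 for *Twist1*, and none of the 6 was called.

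In SS64 cells with *miR-214*, 2165 probe sets were lower (5.79% of those tested) and 1401 were higher (3.75%) than in NC cells, so that 9.54% were called in all. With the replicate numbers as a block, 3067 were lower (8.21%) and 2162 higher (5.79%). The changes were mostly small, since 51 probe sets fell (0.137%) and 21 rose (0.0562%) by more than 2-fold. The median change over all probe sets was -0.0069 on the log2 scale, and the median SD of a probe set was 0.111 in *miR-214* cells and 0.101 in NC cells. The 4 *miR-214* arrays lay wholly below the 4 NC arrays for 3350 probe sets (8.97%) and wholly above them for 2271 (6.08%). Named genes with a called probe set numbered 1427 lower and 921 higher, and 715 called probe sets had no single gene name in the annotation. The counts depend on which arrays set the spread: 993 were lower and 489 higher in 1 fit of the 16 arrays of both lines, and 409 and 196 in 1 fit of all 53 arrays.

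**Figure D1:**
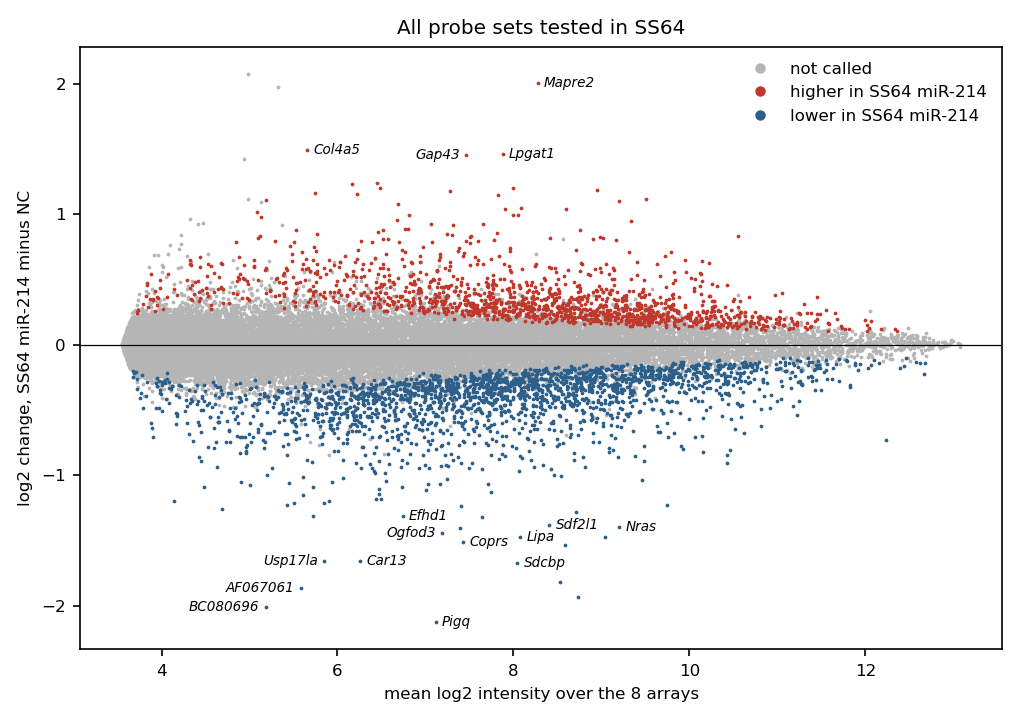
Log2 change in SS64 cells, *miR-214* minus NC (y axis), against the mean log2 intensity over the 8 arrays (x axis), with 1 point for each of the 37362 probe sets tested, colored by whether it was called higher (1401), called lower (2165) or not called. Genes named among the largest changes are labelled, from *Pigq* at -2.12 to *Mapre2* at 2.00.

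The largest fall was that of *Pigq*, followed among named genes by *BC080696*, *AF067061*, *Sdcbp*, *Usp17la*, *Car13*, *Coprs*, *Lipa*, *Ogfod3*, *Nras*, *Sdf2l1* and *Efhd1*, which together hold the 15 named probe sets with the largest called falls whose groups did not overlap. *Pigq* encodes a subunit of the enzyme that starts the synthesis of glycosylphosphatidylinositol (GPI) anchors. Its intensities were 52.7, 73.2, 72.7 and 69.3 in *miR-214* cells, against 293, 270.1, 291 and 306 in NC cells. The groups lay far apart, and the log2 change was -2.12 (SE 0.102, adjusted p = 3.75e-07), a 4.36-fold fall. Of its 3 dimmer probe sets, 1 also fell (-0.53) and the others were not called. *Sdcbp* encodes syntenin, an adaptor of syndecans that acts in exosome formation. It had 138, 147, 158 and 149 in *miR-214* cells, against 452, 463, 474 and 497 in NC cells. Its log2 change was -1.67 (SE 0.0584, adjusted p = 6.16e-08), with little spread in either group. Its far brighter second probe set did not pass, with 2443, 2427, 2539 and 2491 in *miR-214* cells and 2505, 2321, 2711 and 2902 in NC cells (log2 change -0.072, adjusted p = 0.592), so that the fall was seen on 1 of 2 probe sets. *Car13*, a carbonic anhydrase gene, read 62.7, 54.1, 42.8 and 23.3 in *miR-214* cells and 142, 137, 134 and 130.2 in NC cells. The 4 *miR-214* arrays of *Car13* differed among themselves by more than the 4 NC arrays did, with replicate 4 the lowest, and its log2 change of -1.66 has an SE of 0.237 (adjusted p = 0.000906).

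Several of these genes fell on more than 1 probe set. *Lipa*, which encodes the lysosomal acid lipase that breaks down cholesteryl esters, fell on 3 probe sets with log2 changes of -1.48, -1.47 and -1.32 on the log2 scale. The brightest of them had 311, 332, 317 and 304 in *miR-214* cells, against 846, 864, 888 and 905 in NC cells (SE 0.0455, adjusted p = 2.3e-08). *Coprs*, whose protein is a cofactor of the arginine methyltransferase Prmt5, fell with log2 changes of -1.51 (SE 0.0635) and -1.40 (SE 0.102), and a further, dim probe set changed by -0.43, a call lost when any of 4 arrays was left out (adjusted p up to 0.0819). *Sdf2l1*, an endoplasmic reticulum gene of the unfolded protein response, had 223, 226, 189 and 206 in *miR-214* cells and 564, 573, 517 and 538 in NC cells. That is a log2 change of -1.38 (SE 0.0655, adjusted p = 3.75e-07). *Ogfod3*, which encodes an oxygenase-domain protein, changed by -1.45 (SE 0.0723), and *Efhd1*, which encodes a mitochondrial calcium-binding protein, by -1.32 (SE 0.0712).

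Of the 15 named probe sets with the largest called rises and no overlap between groups, 2 read *Mapre2*, which encodes a protein that binds the growing ends of microtubules. The brighter one had 602, 577, 666 and 643 in *miR-214* cells, against 136, 129, 189.8 and 173 in NC cells, a log2 change of 2.00 (SE 0.112, adjusted p = 1.07e-06). The other changed by 1.10 (SE 0.124), while 2 further probe sets of *Mapre2* were not called (-0.092 and 0.029). *Gap43*, a growth cone gene of neurons, had 338, 302, 242 and 296 in *miR-214* cells and 109, 115, 108 and 95.6 in NC cells, a log2 change of 1.45 (SE 0.0987, adjusted p = 4.56e-06). *Stmn4*, of the stathmin family of tubulin-binding proteins, changed by 1.16 (SE 0.0902). Genes of the extracellular matrix were among them. *Col4a5*, a type IV collagen gene, read 90.6, 80.5, 79.1 and 88.2 in *miR-214* cells and 31.2, 28, 37 and 25.1 in NC cells, a log2 change of 1.49 (SE 0.118). *Tgfbi*, which encodes a matrix protein induced by TGF-beta, rose on 2 probe sets, and the brighter one had 1071, 1101, 1011 and 1124 in *miR-214* cells, against 517, 478, 482 and 505 in NC cells (log2 change 1.12, SE 0.0466, adjusted p = 2.13e-07). The acyltransferase gene *Lpgat1* changed by 1.46, the mitochondrial adenylate kinase gene *Ak4* by 1.20 and the carboxypeptidase gene *Cpd* by 1.18 on the log2 scale. *Fubp1*, *Hnrnpd* and *Fxr1*, which encode RNA- or DNA-binding regulators, changed by 1.24, 1.15 and 1.08. *Sec62* rose by 1.23 on 1 of its 4 probe sets, and the probe sets that disagree are described further on. *H2-K1*, a class I histocompatibility gene, was also among them at 1.15, but its probe set is of a type that can read related genes, so that the gene behind this rise is uncertain.

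The study examined a set of genes as candidate targets of *miR-214*, chosen among predicted targets that had fallen after its introduction into these lines, so their fall here is not independent evidence of its direction. Of the 10 genes analysed here, 8 had at least 1 probe set that fell and none had 1 that rose, and 15 of their 29 probe sets fell (51.7%, where 5.79% of all probe sets fell). Their median log2 change was -0.204, beside -0.0069 for all probe sets. *Tpp1*, which encodes a lysosomal peptidase, fell on both probe sets. The dimmer one had 103, 115, 111 and 114 in *miR-214* cells, against 238, 258, 293 and 256 in NC cells, and the brighter one 726, 761, 737 and 708, against 1294, 1216, 1254 and 1256. Their log2 changes were -1.23 (SE 0.074, adjusted p = 1.72e-06) and -0.78 (SE 0.0385, adjusted p = 4.37e-07). *Timp2*, which encodes an inhibitor of metalloproteinases, fell on 4 of 5 probe sets. The brightest of the 4 had 1021, 1082, 971 and 947 in *miR-214* cells and 1929, 1924, 1837 and 1840.2 in NC cells. Its log2 change was -0.91 (SE 0.045, adjusted p = 4.37e-07), and the other 3 changed by -1.03, -0.94 and -0.89. The remaining probe set of *Timp2* is about as bright, with 1852, 1919, 1899 and 2016 in *miR-214* cells and 2011, 2013, 1919 and 2059 in NC cells, and did not pass the test (log2 change -0.058, SE 0.0363, adjusted p = 0.445).

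*Nomo1*, whose protein acts in a complex of the endoplasmic reticulum membrane, fell on both probe sets. The brighter one read 258, 251, 268 and 221 in *miR-214* cells and 399.5, 414, 423 and 455 in NC cells (log2 change -0.76, SE 0.0684, adjusted p = 3.47e-05), and the dimmer one changed by -0.94 (SE 0.121). *Fbxo3*, which encodes a substrate receptor of a ubiquitin ligase, fell most on a probe set with 216, 232, 185 and 182 in *miR-214* cells and 365, 362, 359 and 392 in NC cells, a log2 change of -0.87 (SE 0.0795, adjusted p = 4.21e-05). Its brightest probe set changed by -0.19 (SE 0.045, adjusted p = 0.0205), a call that ended when NC replicate 2 or 3 was left out (adjusted p up to 0.0621) and after median scaling (adjusted p = 0.0511). *Chfr*, a mitotic checkpoint gene, had 184, 182, 174 and 173 in *miR-214* cells and 277, 262, 285 and 261 in NC cells. This was a log2 change of -0.61 (SE 0.0557, adjusted p = 4.21e-05), while its dim second probe set was not called (0.12, adjusted p = 0.396). *Foxo4*, a forkhead transcription factor gene, had 29.2, 31.9, 29.9 and 25.1 in *miR-214* cells and 45.4, 46.2, 47.3 and 46.5 in NC cells (log2 change -0.68, SE 0.0919, adjusted p = 0.000611), and its other probe set was not called (-0.16, adjusted p = 0.564). *Ezh1*, which encodes a histone methyltransferase of Polycomb, read 86.7, 77.5, 70.7 and 82.3 in *miR-214* cells and 110.4, 117, 109 and 100.1 in NC cells (log2 change -0.46, SE 0.0838, adjusted p = 0.0043), and its dim second probe set was not called (-0.04, adjusted p = 0.905). *Plagl2*, a zinc finger gene, fell on 2 of 3 probe sets with log2 changes of -0.51 (SE 0.14) and -0.39 (SE 0.0989), close to the threshold: the call of the first was lost when any of 6 of the 8 arrays was left out and that of the second when any of 5 was (adjusted p up to 0.114 and 0.0927), and the first also after median scaling (adjusted p = 0.0519). No probe set of *Lats2*, a kinase gene of the Hippo pathway, or of *Cbl*, a ubiquitin ligase gene, passed. Their brightest probe sets changed by -0.087 (SE 0.104, adjusted p = 0.753) and -0.034 (SE 0.054, adjusted p = 0.827).

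**Figure D2:**
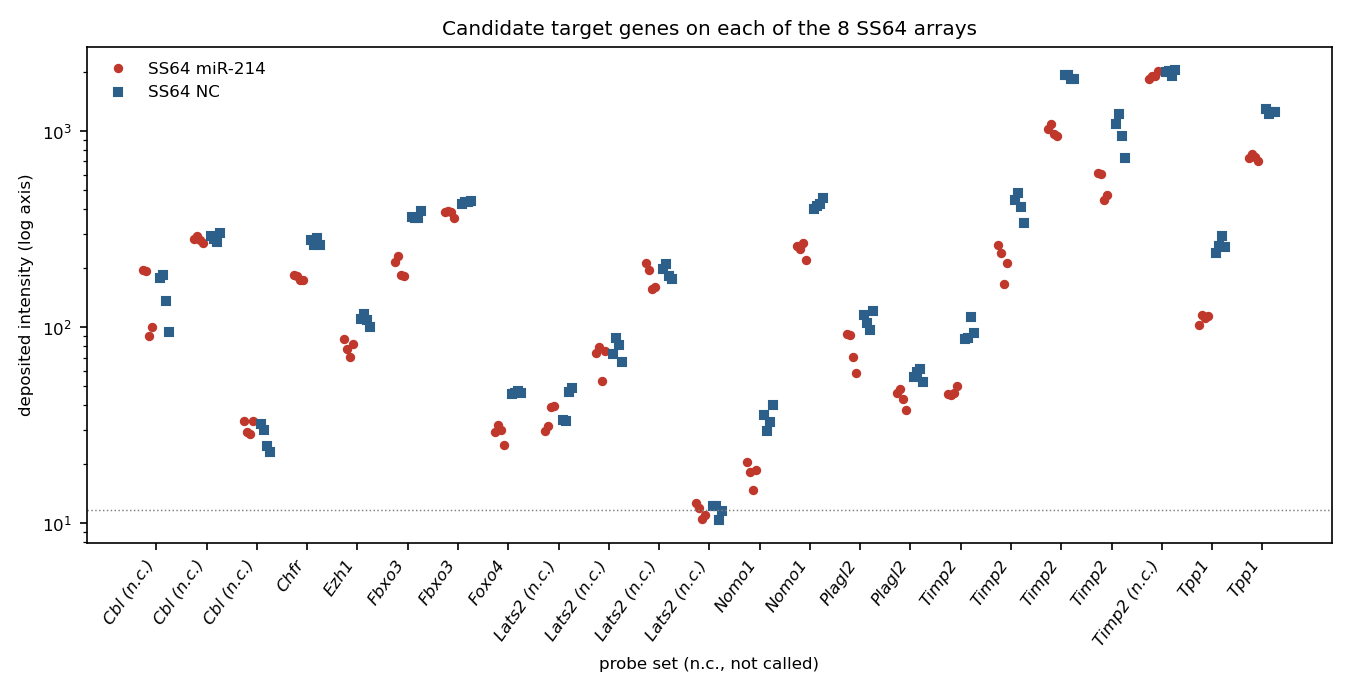
Deposited intensity on a logarithmic axis (y axis) of 23 probe sets of the candidate target genes (x axis) on each array, with circles for the 4 SS64 *miR-214* arrays to the left of squares for the 4 SS64 NC arrays; n.c. marks probe sets that were not called, and the dotted line is the floor of 11.7. The 2 probe sets of *Tpp1* and 4 of 5 of *Timp2* lie lower in *miR-214* cells with no overlap, whereas those of *Cbl* and *Lats2* overlap. Probe sets not called are shown only for *Cbl*, *Lats2* and *Timp2*, and those of the other genes are left out.

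Among 24 measured genes that have been described elsewhere as targets of *miR-214* in human, mouse or zebrafish cells, 4 had a probe set that fell and 18 had none called. Of their 65 probe sets, 9 fell (13.8%, where 5.79% of all probe sets fell) and 2 rose in 2 genes (3.08%), with a median log2 change of -0.0305. *Nras*, which encodes a small GTPase of the Ras family, fell on all 3 probe sets. The brightest had 372, 362, 404 and 319 in *miR-214* cells, against 883, 876, 1012 and 1071 in NC cells, a log2 change of -1.40 (SE 0.0819, adjusted p = 1.48e-06), and the others changed by -1.29 (SE 0.0549) and -0.42 (SE 0.0514). *Galnt7*, which encodes an enzyme that starts O-linked glycosylation, also fell on 3 probe sets, the brightest with 89.3, 87.5, 85.5 and 87.8 in *miR-214* cells and 198, 158, 199.7 and 207 in NC cells (log2 change -1.12, SE 0.0858, adjusted p = 1.2e-05). Smaller falls were found in *Arl2*, a GTPase gene of tubulin folding (-0.31, SE 0.0628), and on 2 of 5 probe sets of *Bcl2l11*, which encodes the pro-apoptotic protein Bim (-0.27 and -0.26), each of which lost its call when any of 6 of the 8 arrays was left out (adjusted p up to 0.126 and 0.129). *Ezh2*, the Polycomb methyltransferase gene, did not pass (log2 change 0.043, SE 0.043, adjusted p = 0.696), nor did *Ctnnb1*, which encodes beta-catenin (brightest probe set -0.034, SE 0.0304, adjusted p = 0.647), or the stress response gene *Atf4* (0.12, adjusted p = 0.118). *Mapk8*, a stress kinase gene, rose by 0.28 (adjusted p = 0.0436), but the call was lost when any 1 of the 8 arrays was left out (adjusted p up to 0.116) and with the replicate block (adjusted p = 0.063).

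No probe set of the *miR-214* host locus or of its regulators was called. The 7 probe sets of *Dnm3os*, *Dnm3* and the transcription factor genes *Twist1* and *Twist2* changed by -0.202 to 0.204, and those of *Dnm3os* were dim. Among 22 genes of microRNA maturation and silencing, 5 of 62 probe sets rose (8.06%, against 3.75% of all) and 2 fell (3.23%, against 5.79%), with a median of 0.0136. With the replicate block 9 rose and 5 fell, where 5.79% of all probe sets rose and 8.21% fell. *Ago2*, which encodes the Argonaute protein that can cut its target, had 212, 217, 179.7 and 188 in *miR-214* cells and 155, 151, 141 and 133 in NC cells (log2 change 0.46, SE 0.08, adjusted p = 0.00335), while its other 3 probe sets were not called. *Ago1*, which encodes a related Argonaute protein, had 213, 223, 226 and 239.8 in *miR-214* cells and 279, 272, 287 and 276 in NC cells, so that it changed the other way (log2 change -0.31, SE 0.0545, adjusted p = 0.00366). *Cnot6*, which encodes a deadenylase, rose on 3 probe sets by 0.38, 0.33 and 0.29.

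Of 48 probe sets of the PI3K and FOXO pathway, 6 were lower (12.5%, against 5.79% of all) and 5 higher (10.4%, against 3.75%), with a median of -0.0482. The lower ones include *Foxo4*, a candidate target chosen because it fell in these lines. *Foxo3*, a forkhead transcription factor gene of this pathway, fell on 2 probe sets, the brighter with 215, 234, 248 and 236 in *miR-214* cells and 299, 321, 370.4 and 367 in NC cells (log2 change -0.54, SE 0.0773, adjusted p = 0.000933). *Pik3ca*, which encodes a catalytic subunit of PI3K, rose on 4 probe sets by 0.33 to 0.49, the brightest with 293, 295, 251 and 275 in *miR-214* cells and 220.0, 230.1, 216 and 218 in NC cells (adjusted p = 0.00568). Of the 4, 1 lost its call when any of 4 of the arrays was left out (adjusted p up to 0.0813). *Insr*, the insulin receptor gene, rose by 0.44 (SE 0.0975) on 1 of 3 probe sets.

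Lysosome and autophagy genes were lower on 19 of 50 probe sets (38%, in 14 of 24 genes) and higher on 1 (2%), *Ctsl*, where 5.79% of all probe sets were lower and 3.75% higher, with a median log2 change of -0.183. The mean log2 deviation of the 50 probe sets from their NC means was -0.177, -0.169, -0.245 and -0.224 on the 4 *miR-214* arrays, and lay between -0.00697 and 0.0108 on the NC arrays. All 4 *miR-214* arrays were thus lower than all 4 NC arrays on this average. Within this list, which does not hold *Lipa*, *Tpp1* fell most. As a candidate target, *Tpp1* was chosen because it fell in these lines, so the count is partly set by that choice. *Glb1*, which encodes the lysosomal beta-galactosidase, had 255, 268, 259 and 217 in *miR-214* cells and 342, 351, 375 and 356 in NC cells, a log2 change of -0.52 (SE 0.0697, adjusted p = 0.000618). *Mcoln1*, which encodes a calcium channel of the lysosome, fell on 2 probe sets with log2 changes of -0.44 (SE 0.0595) and -0.30 (SE 0.0725), the second of which lost its call when any of 4 arrays was left out (adjusted p up to 0.0788). *Wipi1*, an autophagy gene, fell with a log2 change of -0.46 (SE 0.112) on 1 of 6 probe sets, and lost its call when any of 5 arrays was left out (adjusted p up to 0.0739).

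Genes of chemokines and cytokines were lower on 6 of 46 probe sets (13%, against 5.79% of all probe sets) and higher on none (against 3.75%), although the median of the list was -0.0065, close to that of all probe sets. *Ccl2*, which encodes a monocyte chemoattractant, had 561, 592, 519 and 518 in *miR-214* cells, against 954, 1001, 931 and 866 in NC cells. Its log2 change was -0.78 (SE 0.0581, adjusted p = 1.01e-05). *Ccl7*, a neighbor of *Ccl2* with a similar role, had 32.7, 36.8, 26.9 and 31.9 in *miR-214* cells and 55.4, 55.4, 52.7 and 54.9 in NC cells (log2 change -0.78, SE 0.101, adjusted p = 0.000467). *Il33*, which encodes an alarmin, read 25.4, 30.8, 35.5 and 41.8 in *miR-214* cells and 69, 68.9, 75.5 and 79 in NC cells, a log2 change of -1.15 (SE 0.137, adjusted p = 0.000257). *Csf1*, the macrophage growth factor gene, fell on 2 probe sets with log2 changes of -0.53 and -0.40. *Cxcl15* was dim and its 2 probe sets did not pass (log2 change 0.007, adjusted p = 0.982, and -0.079, adjusted p = 0.608).

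Interferon-stimulated genes were lower on 7 of 26 probe sets (26.9%, against 5.79% of all) and higher on none (against 3.75%), with a median of -0.0751. *Gbp3*, which encodes an interferon-induced GTPase, had 20.7, 23.3, 25.9 and 19.2 in *miR-214* cells, against 49.2, 43.1, 47.3 and 47.4 in NC cells (log2 change -1.08, SE 0.105, adjusted p = 6.43e-05). *Gbp2*, of the same family, fell on 2 probe sets with log2 changes of -1.06 (SE 0.0999) and -0.88 (SE 0.0827). *Xaf1*, a pro-apoptotic gene, changed by -0.94 (SE 0.0872) and the chemokine gene *Cxcl10* by -0.67 (SE 0.12). Of markers of other cells that a culture could hold, the summed intensity of 10 macrophage markers was 191.7 to 209.2 in *miR-214* cells and 208.6 to 243.4 in NC cells. Of these, 2 were called lower (against 5.79% of all probe sets), *Ptprc* (-0.48) and *Lyz2* (-0.25), both dim, and 5 of the 10 averaged under 20 in NC cells. Of 5 skeletal muscle markers, 1 was called lower (against 5.79% of all probe sets), *Acta1*, with means of 46.27 in *miR-214* and 69.65 in NC cells. In the same order, the others had 33.3 and 31.39 (*Myod1*), 21.31 and 21.55 (*Myog*), 35.57 and 37.8 (*Ckm*) and 12.75 and 14.55 (*Myh4*). The sums of the 5, which did not overlap, were 131.6 to 169.5 in *miR-214* cells and 170.5 to 187.3 in NC cells. The part of these cell types in the results was not tested. No marker of granulocytes and mast cells, endothelium, epithelium or lymphocytes was called. Among 7 mesenchymal markers, each on its brightest probe set, 3 were called lower (against 5.79% of all probe sets) and 1 higher (against 3.75%). Mean intensities in *miR-214* and NC cells were 459.2 and 563.8 for *Col1a1*, 2397 and 2848 for *Col3a1* and 68.4 and 91.7 for *Pdgfrb*. *Prrx1* was the 1 that rose, at 622.5 and 414.9.

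Of 55 probe sets of replication and G1/S genes, 22 rose (40%, in 16 of 30 genes, where 3.75% of all probe sets rose) and none fell (against 5.79%), with a median log2 change of 0.17. The mean log2 deviation from the NC means over these 55 was 0.187, 0.207, 0.172 and 0.151 on the 4 *miR-214* arrays and -0.0147 to 0.0199 on the NC arrays. *Pola1*, which encodes the catalytic subunit of DNA polymerase alpha, had 678, 649, 676 and 682 in *miR-214* cells, against 360.4, 389.6, 374 and 396 in NC cells, a log2 change of 0.82 (SE 0.0461, adjusted p = 1.07e-06). *Cdc6*, which loads the replicative helicase, had 383, 387, 414 and 366 in *miR-214* cells and 255, 264, 281 and 292 in NC cells (log2 change 0.51, SE 0.06, adjusted p = 0.000248). *Mcm5*, a helicase subunit gene, rose on 2 probe sets by 0.62 and 0.38, and the checkpoint kinase gene *Chek1* on 3 by 0.50, 0.46 and 0.41. Of 54 probe sets of mitosis genes, 2 rose (3.7%, against 3.75% of all) and 6 fell (11.1%, against 5.79%), with a median of -0.0085, and 4 rose and 8 fell with the replicate block. *Prc1*, a gene of the mitotic spindle midzone, fell on 2 probe sets with log2 changes of -0.30 (SE 0.0386) and -0.27 (SE 0.0513), *Aurkb*, a mitotic kinase gene, by -0.33 (SE 0.0664), while the condensin gene *Ncapg* rose by 0.29 (SE 0.0537). The mean log2 deviation of the mitosis list was 0.0642, 0.0236, -0.11 and -0.0997 on the 4 *miR-214* arrays and 0.0411, 0.0389, -0.012 and -0.0679 on the 4 NC arrays, so that replicates 1 and 2 of each group lay above its replicates 3 and 4.

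Genes of the hypoxia response and glycolysis rose on 14 of 46 probe sets (30.4%, in 11 of 26 genes, against 3.75% of all probe sets) and fell on 2 (4.35%, against 5.79%), both of *Egln1*, which encodes an oxygen sensor that acts against the response. The median was 0.125, and 24 rose with the replicate block, with which 5.79% of all probe sets rose. *Pfkp*, which encodes a phosphofructokinase of glycolysis, had 706, 725, 652 and 672 in *miR-214* cells, against 453, 460.1, 464 and 451 in NC cells (log2 change 0.59, SE 0.0456, adjusted p = 1.23e-05). *Bnip3*, a mitophagy gene induced by hypoxia, had 642, 641, 670.4 and 702 in *miR-214* cells and 429, 454, 489 and 504 in NC cells (log2 change 0.50, SE 0.058, adjusted p = 0.000208). *Pdk1*, which encodes a kinase that holds pyruvate out of the mitochondrial cycle, rose on 3 probe sets by 0.52, 0.38 and 0.29, of which the last 2 each lost the call when any of 7 arrays was left out (adjusted p up to 0.111 and 0.104). Immediate early genes rose on 12 of 37 probe sets (32.4%, against 3.75% of all) and fell on 1 (2.7%, against 5.79%), *Nr4a1*, with a median of 0.0643. The Kruppel-like factor gene *Klf4* rose on 2 probe sets, the brighter with 303, 284, 333 and 251 in *miR-214* cells and 159.9, 158, 183 and 167 in NC cells (log2 change 0.80, SE 0.0857, adjusted p = 0.000123). *Klf2*, of the same family, rose by 0.62 (SE 0.0783), and *Maff*, which encodes a small Maf factor, by 0.56 (SE 0.0833).

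A list of matrix genes without *Col4a5* and *Tgfbi* had 12 of 49 probe sets lower (24.5%, against 5.79% of all) and 3 higher (6.12%, against 3.75%), with a median of -0.0141. With the replicate block 5 were higher, where 5.79% of all probe sets were. *Col4a1*, a type IV collagen gene, had 1290.1, 1284, 1229 and 1272 in *miR-214* cells, against 1855, 1892, 1834 and 1875 in NC cells on its brighter probe set (log2 change -0.56, SE 0.0318, adjusted p = 1.22e-06). *Col6a1* and *Col6a2*, which encode chains of type VI collagen, fell with log2 changes of -0.50 and -0.45. *Tnc*, which encodes tenascin C, had 289.9, 299, 257 and 334 in *miR-214* cells and 189.8, 199, 189 and 190.2 in NC cells, so that it rose (log2 change 0.61, SE 0.0745, adjusted p = 0.000295). TGF-beta and BMP target genes were lower on 6 of 24 probe sets (25%, against 5.79% of all) and higher on 3 (12.5%, against 3.75%), with a median of -0.004. *Bambi*, a pseudoreceptor gene, and *Smad6*, which encodes an inhibitory Smad, fell with log2 changes of -0.72 (SE 0.0624) and -0.61 (SE 0.0749).

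Of 76 probe sets of synovial sarcoma genes, 12 fell (15.8%, against 5.79% of all) and 1 rose (1.32%, against 3.75%), *Egr1*, with a median of -0.0095, and 2 rose with the replicate block. *Apod*, the gene of apolipoprotein D, a carrier of lipids, had 601, 606, 532 and 515 in *miR-214* cells, against 1369, 1350.0, 1255 and 1289.8 in NC cells. Its log2 change was -1.23 (SE 0.0587, adjusted p = 3.75e-07), whereas *Sox2* and *Tle1* were not called. *Sox4*, a developmental transcription factor gene, fell on 3 probe sets with log2 changes of -0.71, -0.56 and -0.27, and *Pax3*, another, on 3 by -0.47, -0.46 and -0.41. The second of *Pax3* lost its call when any of 5 arrays was left out (adjusted p up to 0.0915). *Tle4*, which encodes a co-repressor, changed by -0.57 (SE 0.094). Of 53 probe sets of neuronal genes, 5 rose (9.43%, against 3.75% of all) and 2 fell (3.77%, against 5.79%), with a median of -0.00062. Besides *Gap43*, the neurofilament gene *Nefm* had 69.7, 63.4, 62.2 and 56.3 in *miR-214* cells and 34.2, 30.4, 33.1 and 38.9 in NC cells (log2 change 0.88, SE 0.102, adjusted p = 0.000208), and *Nefl*, another neurofilament gene, rose on 2 probe sets by 0.65 and 0.62.

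**Figure D3:**
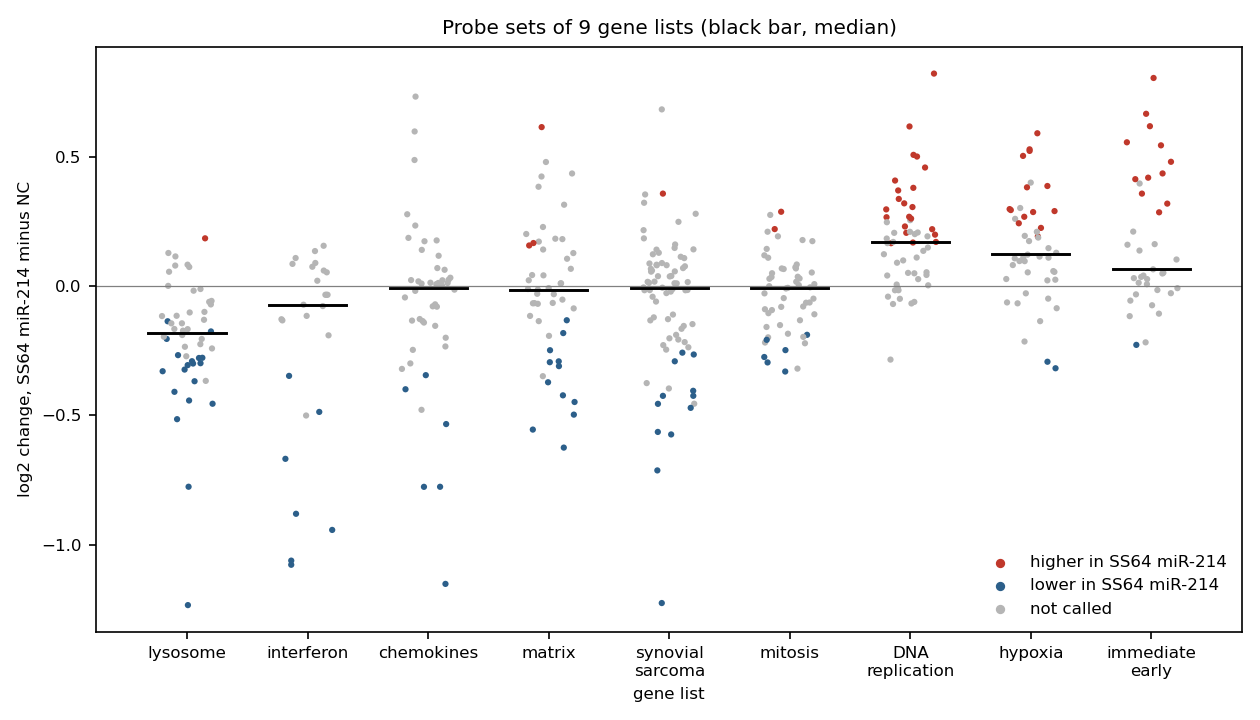
Log2 change in SS64 cells, *miR-214* minus NC (y axis), of each probe set of 9 gene lists (x axis), colored by call, with a black bar at the median of each list. The median is -0.183 for lysosome genes and 0.17 for DNA replication genes, and -0.0085 for mitosis genes.

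Probe sets of 1 gene did not always move together, so they were kept apart. Of 6175 genes with 2 or more probe sets tested, 125 fell and 74 rose on every probe set, 672 fell and 512 rose on some with the rest not called, and 13 were called lower on 1 probe set and higher on another. The widest such gap was that of *Sec62*, which encodes a subunit of the protein translocation channel of the endoplasmic reticulum. Its brightest probe set had 3023, 2748, 2812 and 2901 in *miR-214* cells and 3604, 3429.7, 3436 and 3312 in NC cells, and fell with a log2 change of -0.26 (SE 0.0369). A dimmer one had 105, 116, 111 and 107 in *miR-214* cells, against 45, 44.5, 43.2 and 55.6 in NC cells, and rose by 1.23 (SE 0.0932), a gap of 1.49. *C1galt1*, which encodes a galactosyltransferase of O-linked glycans, rose on 2 probe sets by 0.92 and 0.62 and changed by -0.23 on its brightest, which lost its call when any of 5 arrays was left out (adjusted p up to 0.08). *Adipor1*, an adiponectin receptor gene, rose by 0.85 on its dimmest probe set, while its 2 bright ones changed by -0.23 and -0.17 and lost their calls when any of 2 and any of 7 arrays were left out (adjusted p up to 0.0604 and 0.131). The DNA ligase gene *Lig3* and the cyclin gene *Ccny* had gaps of 0.999 and 0.926, and *Zfp800*, *Wdr33*, *Myef2*, *Mkks* and *Kif1b* had gaps of 0.589 to 0.838. Some calls behind these gaps were lost when 1 array was left out. Any of 6 arrays ended the rise and the fall of *Zfp800*, and any of 7 the rise of *Kif1b* (adjusted p up to 0.11 in each). For the fall of *Myef2* it was any of 5 (up to 0.0849), and for that of *Wdr33* 1 array (0.0512). *Timp2*, above, had 4 probe sets that fell and 1 that did not. Whether these probe sets read different 3′ ends of a transcript was not tested, since no probe positions were used.

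**Figure D4:**
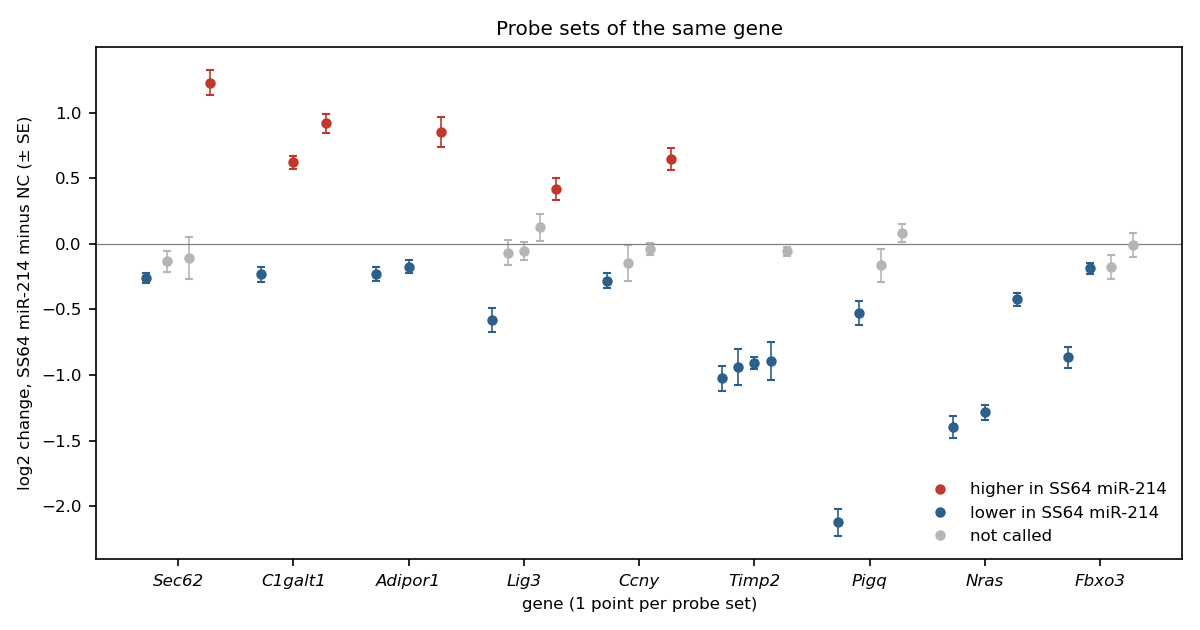
Log2 change in SS64 cells, *miR-214* minus NC (y axis, with SE bars), of every probe set tested of 9 genes (x axis), colored by call. *Sec62* spans -0.26 to 1.23, and 4 probe sets of *Timp2* lie between -1.03 and -0.89 beside another at -0.058.

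SS40 cells, the second line, showed many of the same directions at a larger spread. With the same test, 193 probe sets fell (0.515%) and 67 rose (0.179%) in SS40, where the median SD of a probe set was 0.159 in *miR-214* cells and 0.125 in NC cells. The lines have separate control arrays. Of the 2165 probe sets that fell in SS64, 2123 were tested in SS40, 1698 of them lay below 0 there (80%, against 52% of all probe sets tested in both) and 108 also fell. Of the 1401 that rose in SS64, 1395 were tested in SS40, 968 lay above 0 (69.4%, against 48%) and 47 also rose. Among the largest changes, *Pigq* was -2.12 in SS64 and -1.66 in SS40 (adjusted p = 0.000641 in SS40), *Nras* was -1.40 and -1.42 (adjusted p = 0.000641), *Lpgat1* was 1.46 and 1.21 (adjusted p = 0.000837), and *Tpp1* was -1.23 and -1.05 (adjusted p = 0.0026). No probe set of the candidate target genes passed the test of a difference between the lines. Over all probe sets, only 0.333% passed it as lower and 0.272% as higher in SS64. With 29 probe sets, passing none is therefore no sign that the candidate targets responded alike in both lines.

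The difference between the lines was tested in 1 fit of the 16 arrays, in which 130 probe sets (0.333%) had a lower and 106 (0.272%) a higher response in SS64 than in SS40. Where a probe set passed in SS64 and not in SS40, this test is the comparison of the lines. *AF067061* changed by -1.87 (SE 0.106) in SS64 and 0.11 (SE 0.0709) in SS40, a difference of -1.98 (adjusted p = 1.79e-06). *Efhd1* was -1.32 in SS64 and 0.017 in SS40 (adjusted p of the difference = 0.000596). *Gpnmb*, which encodes a transmembrane glycoprotein of the lysosome and melanosome, was -1.19 in SS64 and 0.035 in SS40 (adjusted p = 0.00127). *Gap43* was 1.45 in SS64 and 0.30 in SS40 (adjusted p = 0.0117), *Stmn4* was 1.16 and 0.17 (adjusted p = 0.00135), and *Ak4* was 1.20 and 0.12 (adjusted p = 0.00276). *Lipa* had log2 changes of -1.48 in SS64 and -0.85 in SS40 on the probe set that differed (adjusted p = 0.00534), and *Tgfbi* was 1.12 and 0.38 (adjusted p = 0.0004). *Prl2c2*, which encodes a growth factor of the prolactin family called proliferin, was the reverse case, with -0.73 in SS64 and -2.17 in SS40 (difference 1.44, adjusted p = 0.000861). Its probe set is of a type that can read related genes, and which was read was not tested. *Ntn1*, the axon guidance gene of netrin, and *Lgi4*, which encodes a secreted protein of peripheral nerve, were -0.94 and -1.07 in SS64 and 0.27 and 0.15 in SS40 (adjusted p = 0.00125 and 0.00711). With the replicate block, 82 probe sets had a lower and 69 a higher response in SS64. None of the 55 probe sets of DNA replication genes passed the test of that difference, though their median was 0.17 in SS64 and 0.0222 in SS40.

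**Figure D5:**
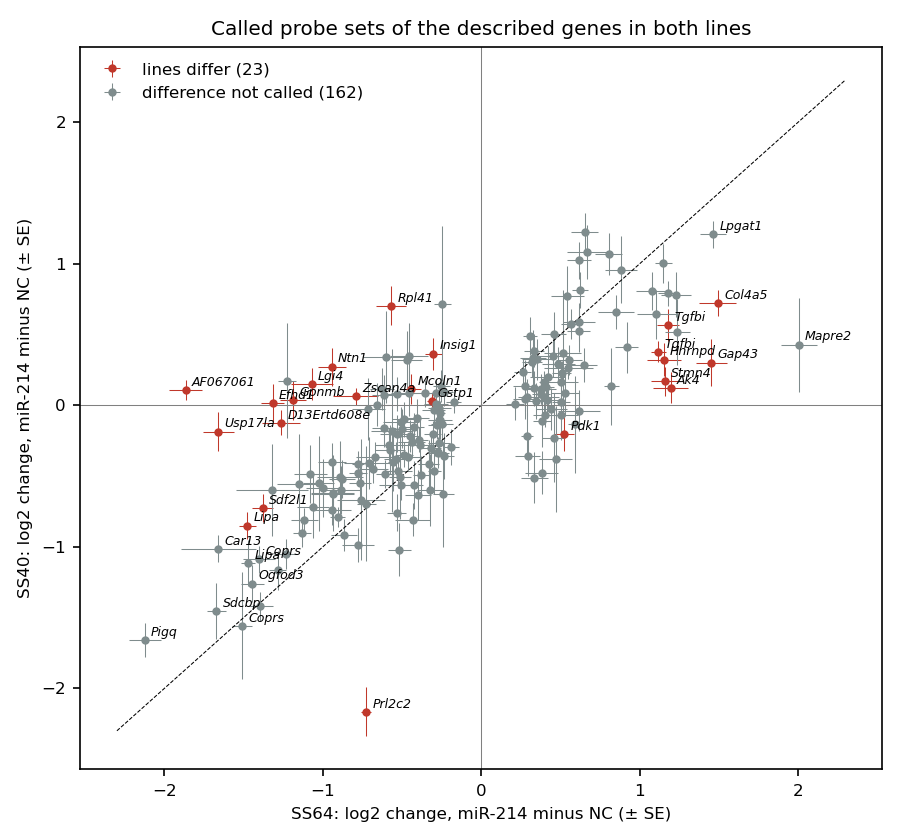
Log2 change of *miR-214* minus NC in SS64 (x axis) and in SS40 (y axis), with SE bars, for the 185 called probe sets of the genes described that were tested in both lines. Red points (23) differ between the lines and grey points (162) do not pass that test; the dashed line marks equal change, and *Pigq* lies farthest to the left, at -2.12 in SS64 and -1.66 in SS40.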

How the data were processed

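The 53 arrays came with 1 table of intensity values per probe set, which the authors deposited on a linear scale. The submitters' processing notes name MAS5 without a version, the methods name GeneSpring, and the scaling is not given in the sources used here. The study's text names its lines SS40 and SS60, and SS60 is taken to be the SS64 of the labels. Of 45141 probe sets, 104 control probe sets were left out. Gene symbols came from the platform annotation updated by Entrez identifier (28898 probe sets with 1 symbol, 551 with several, 15588 with none).

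Intensities were floored at 11.7, the median over arrays of each array's 20th percentile, and log2 transformed. Probe sets above the floor on at least 4 of the 8 SS64 arrays were tested with limma 3.58.1 in R 4.3.3 (lmFit, eBayes with trend) and Benjamini-Hochberg adjustment at 0.05. The number of arrays limits the precision. Figures used matplotlib 3.10.9 in Python 3.11.15. Tests were checked on simulated data in which the arrays varied independently. That check does not cover arrays that deviate together, as these did.

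Named were the candidate targets, the 15 largest falls and 15 largest rises with no overlap, up to 4 called members of each list, the 10 genes with the widest opposite calls and the 10 largest differences between lines. Other genes in the text were added after their values were seen. Members and lists were chosen with earlier results of these data known. There were 44 lists beside those made after values were seen, and not all are described. Among those left out, ribosome genes were higher on 2.86% of probe sets, oxidative phosphorylation genes on 4.55% and WNT targets on none. They were lower on none, 2.27% and 5.41%. Integrin genes, also left out, were higher on 2.7% and lower on 16.2%. Over all probe sets, 3.75% were higher and 5.79% lower. Same-numbered arrays of the 2 groups moved together around their means (correlations of deviations from the group means 0.346, 0.319, 0.221 and 0.283), but so did *miR-214* 1 with NC 2 (0.376), 3 with NC 4 (0.381), 2 with NC 1 (0.264) and 4 with NC 3 (0.135). The labels state no pairing, so the main test has no block and the replicate block is an alternative.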

Additional observations from a re-analysis of the deposited data

Results flagged for a closer look

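In 27 of 484 groups of 4 arrays, 1 array stood apart from the other 3 by Dixon's criterion, which chance alone gives in about 1 in 20 groups. On *miR-214* replicate 1 it was the intensity of *Pigq* (52.69, where the others had 69.33 to 73.17), *Ptprc* (11.77, where the others had 11.34 to 11.7) and *C1galt1* (721.6, where the others had 633.7 to 646). On *miR-214* replicate 3 it was the intensity of *Lats2* (53.37, where the others had 74.34 to 78.97), *Coprs* (94.78, where the others had 104.2 to 105.4), *Gm20767* (12.85, where the others had 9.756 to 10.33), *Mapre2* (39.28, where the others had 49.71 to 51.07), *Galnt7* (54.74, where the others had 81.19 to 87.51) and *Sec62* (19.15, where the others had 16.54 to 16.75). On *miR-214* replicate 4 it was the intensity of *Fbxo3* (362.2, where the others had 385.3 to 389.1), *Lig3* (56.5, where the others had 44.17 to 44.91), *Pik3ca* (128.6, where the others had 167.1 to 173.8), *Tcstv3* (14.51, where the others had 10.66 to 11.12) and *Wdr33* (23.39, where the others had 18.51 to 19.2). On NC replicate 1 it was the intensity of *Ncapg* (392, where the others had 369.8 to 372.5). On NC replicate 2 it was the intensity of *Tnc* (198.7, where the others had 188.7 to 190.1) and *Lig3* (38.84, where the others had 44.55 to 45.66). On NC replicate 3 it was the intensity of *Maff* (88.19, where the others had 103.6 to 106.8), *Ccl7* (52.71, where the others had 54.94 to 55.41), *Smad6* (235.7, where the others had 271.4 to 278.5), *Aurkb* (426, where the others had 464.8 to 470) and *Prl2c2* (5827, where the others had 6306 to 6378). On NC replicate 4 it was the intensity of *Tgfbi* (108.3, where the others had 101.2 to 102.3), *Tdpoz1* (12.45, where the others had 10.41 to 11.29), *Lyz2* (14.89, where the others had 13.46 to 13.66), *Sec62* (55.58, where the others had 43.21 to 45) and *Zfp800* (228.4, where the others had 215.2 to 215.9). For *Ptprc*, *Gm20767*, *Tcstv3* and *Tdpoz1* the other 3 arrays lay at or under the floor of 11.7.

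For 27 probe sets of the genes described, the response to *miR-214* differed between SS64 and SS40 in 1 fit of the 16 arrays. The genes described include the 10 largest differences between the lines, so this count is partly set by that choice. Over all probe sets, 0.333% had a lower and 0.272% a higher response in SS64. The difference on the log2 scale, SS64 minus SS40, was below 0 for *BC080696* -2.01 (adjusted p = 1.79e-06), *AF067061* -1.977 (adjusted p = 1.79e-06), *Usp17la* -1.476 (adjusted p = 0.000674), *Efhd1* -1.333 (adjusted p = 0.000596), *Serpinb8* -1.311 (adjusted p = 0.00124) and *Rpl41* -1.273 (adjusted p = 0.00125). It was also below 0 for *Gpnmb* -1.221 (adjusted p = 0.00127), *Lgi4* -1.218 (adjusted p = 0.00711), *Ntn1* -1.217 (adjusted p = 0.00125), *Tcstv1* -1.196 (adjusted p = 1.72e-05), *D13Ertd608e* -1.139 (adjusted p = 0.00135) and *Zscan4a* -0.8562 (adjusted p = 0.0205). It was also below 0 for *Insig1* -0.6672 (adjusted p = 0.0138), *Sdf2l1* -0.6532 (adjusted p = 0.0108), *Lipa* -0.6279 (adjusted p = 0.00534), *Gm20767* -0.6032 (adjusted p = 0.0021), *Mcoln1* -0.5585 (adjusted p = 0.0401) and *Gstp1* -0.3399 (adjusted p = 0.0229). It was above 0 for *Prl2c2* 1.438 (adjusted p = 0.000861), *Gap43* 1.151 (adjusted p = 0.0117), *Ak4* 1.073 (adjusted p = 0.00276), *Stmn4* 0.9927 (adjusted p = 0.00135), *Hnrnpd* 0.8306 (adjusted p = 0.0229) and *Col4a5* 0.7701 (adjusted p = 0.0233). It was also above 0 for *Tgfbi* 0.7413 (adjusted p = 0.0004), *Pdk1* 0.7237 (adjusted p = 0.0171) and *Tgfbi* 0.6113 (adjusted p = 0.0442). *BC080696*, *Serpinb8*, *Tcstv1* and *Gm20767* lay above the floor on too few SS40 arrays to be tested in SS40 alone. Their difference equals their change in SS64, so it cannot tell a weaker response in SS40 from low expression there.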

How the results depend on the processing

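All 3566 called probe sets kept their direction under each alternative run, save that a floor at the 40th percentile left 3509 to test, which kept it too. For the joint fits, the blocks, the t-tests, eBayes without trend and no filter on low values, this was fixed in advance. These reuse the same difference of group means and change only the spread, the adjustment or the probe sets tested. Direction could change only under another scaling or floor, or where arrays were left out. The count of 2165 lower and 1401 higher was 409 lower and 196 higher in 1 fit of all 53 arrays, and 993 and 489 in 1 fit of the 16 arrays of both lines. With the replicate block 2162 were higher. The methods' t-test without adjustment gave 4203 lower and 3025 higher, and 2665 in all after Benjamini-Hochberg. Leaving out 1 array gave 1612 to 1950 lower, 952 to 1299 higher, 46 to 60 lower and 22 to 25 higher by more than 2-fold, and 88 to 106 lower and 75 to 86 higher responses in SS64 than in SS40. For the lines, the replicate block gave 82 lower and 69 higher, where 130 and 106 were found without it. The cause of these differences was not tested.

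Alternatives chosen after seeing the data took the replicates 1 and 2 apart from 3 and 4, because arrays 1 and 2 of both groups deviated together, as did 3 and 4 (correlations of deviations between the groups -0.195 to -0.426 between the pairs). With replicates 3 and 4 only, 524 were higher, and 39 rose and 81 fell by more than 2-fold. With these pairs of replicates as a block, 3407 were lower and 2396 higher. The share of calls that were lower was 60.7%, 53.3% after quantile normalization, 45% with replicates 1 and 2 only, 73.8% with replicates 3 and 4 only and 67.6% in the 53-array fit. Of 189 called probe sets of the genes described, 61 lost the call under no alternative and 35 lost it without some 1 array. None of 5307 combinations of probe set and alternative reversed, though many of the alternatives could not reverse a direction. The block ended the call of 1 of the 189 probe sets, *Mapk8*.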

Other observations

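Several of the largest falls belong to genes known from the early mouse embryo, a list put together after their values were seen. Of 12 probe sets of 11 such genes, 8 fell (66.7%, where 5.79% of all probe sets fell) and none rose (against 3.75%). Since the list was put together from genes that had fallen, this count is not independent evidence. *BC080696* had 19.3, 20.2, 17.6 and 15.7 in *miR-214* cells, against 83.4, 60.0, 81.7 and 69.4 in NC cells (log2 change -2.01, SE 0.124, adjusted p = 2.12e-06). *AF067061* had 22.9, 27.7, 23.2 and 27.3 in *miR-214* cells and 83, 101, 100.3 and 84.8 in NC cells, and *Usp17la*, which encodes a deubiquitinase, had 33.2, 34.4, 29.7 and 32.6 in *miR-214* cells and 101, 87.8, 111 and 112 in NC cells. In each of these 3 the groups did not overlap. *D13Ertd608e* had 17.1, 17.5, 14.4 and 17.8 in *miR-214* cells and 34.6, 36.1, 41.6 and 48.8 in NC cells (log2 change -1.26, adjusted p = 5.1e-05). *Zscan4a*, a zinc finger gene of this stage, had 16.7, 18.6, 17.3 and 21.1 in *miR-214* cells and 30.1, 28.6, 27.2 and 43.4 in NC cells, with NC replicate 4 the highest. *Tcstv1* lay under the floor on all 4 *miR-214* arrays and had 27.3, 22.1, 29.4 and 29.3 in NC cells, so that it was at least 2.29-fold lower. Of the 12 probe sets, 7 passed the test of a difference between SS64 and SS40. Over all probe sets, 0.333% had a lower and 0.272% a higher response in SS64. Among the 7, *BC080696*, *Tcstv1* and *Gm20767* were too low in SS40 to be tested there. Their probe sets may read related family members, and which copy was read was not tested.

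*Pyurf* had 151, 147, 146 and 135 in *miR-214* cells, against 324, 315, 311 and 319 in NC cells (log2 change -1.13, SE 0.0556, adjusted p = 4.3e-07), and was also chosen after its values were seen. *Gbp7*, a guanylate-binding protein gene, fell on 1 of 2 probe sets (log2 change -0.998, SE 0.111).

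The counts of the lists that follow stand beside 3.75% of all probe sets higher and 5.79% lower, or 5.79% and 8.21% with the replicate block. Cholesterol synthesis genes were higher on 5 of 25 probe sets (20%) and lower on 1 (4%), and 9 were higher with the replicate block. *Sc5d*, which encodes a desaturase of the last steps, had 196, 190.1, 191 and 172 in *miR-214* cells and 118, 126, 128 and 132 in NC cells on 1 of 3 probe sets (log2 change 0.57, SE 0.0659, adjusted p = 0.000216). *Insig1*, which encodes a protein that restrains the pathway, was the 1 that fell (-0.30, SE 0.0515). Of 34 probe sets of the ATF4 response, 7 rose (20.6%) and 3 fell (8.82%). *Nupr1*, a stress gene, fell on both (-0.88 and -0.71), and *Chac1*, a glutathione-degrading enzyme gene, rose (0.47, SE 0.103). Chaperone genes of the endoplasmic reticulum were lower on 6 of 48 probe sets (12.5%) and higher on 1 (2.08%), and 10 were lower and 4 higher with the replicate block. Besides *Sdf2l1*, *Edem1*, which acts in the disposal of misfolded proteins, fell on 1 of 2 (-0.48, SE 0.0519). NRF2 target genes were lower on 5 of 29 probe sets (17.2%) and higher on 1 (3.45%), and 9 were lower and 2 higher with the replicate block. *Hmox1*, which encodes heme oxygenase, had 155, 152, 137 and 152 in *miR-214* cells and 257, 235, 209 and 242 in NC cells (log2 change -0.66, SE 0.0738, adjusted p = 0.000172). Metalloproteinases and their inhibitors were lower on 10 of 39 probe sets (25.6%) and higher on 2 (5.13%). The lower ones include those of *Timp2*, a candidate target chosen because it fell in these lines, so this count is partly set by that choice. *Timp1*, an inhibitor gene related to *Timp2*, had 2469.6, 2489, 2402 and 2414 in *miR-214* cells and 1802, 1934, 1811 and 1873 in NC cells, so that it rose (log2 change 0.40, SE 0.0328, adjusted p = 1.9e-05).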
